A study of Mus musculus with 6 samples.

Results

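The genes described here encode the subunits of respiratory complexes II to V and the proteins of mitochondrial DNA (mtDNA), and they were measured as mRNA in mouse soleus. Members were taken by symbol: the 4 succinate dehydrogenase genes Sdha to Sdhd, Cyc1, and all genes whose names begin with Uqcr, with Cox followed by 4 to 8, or with Atp5. Mitochondrial genes carried no mt- prefix in the normalized table, so all 13 protein-coding genes of the mitochondrial chromosome were added. Of the 51912 genes counted, 59 were members, with 46 encoded in the nucleus and 13 in mtDNA. Of these, 53 passed the filter on low counts, among 14696 genes tested. All 46 nuclear members passed, with 7 of the 13 mtDNA members. The prefix rule also takes in Cox7a2l, which encodes a supercomplex factor related to Cox7a2, and it leaves out complex I subunits of the nucleus.

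The respiratory chain of the inner mitochondrial membrane passes electrons from NADH and succinate to oxygen, pumps protons, and lets ATP synthase use the proton gradient to make ATP. Complex II is encoded wholly in the nucleus, whereas complexes I, III, IV and V each combine nuclear subunits with a few made inside the organelle from mtDNA. The mtDNA mRNAs are cut from long polycistronic transcripts, and all of them but mt-Nd6 lie on the transcript of the heavy strand. Soleus is a postural muscle rich in slow oxidative fibers and in mitochondria.

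Soleus RNA was sequenced from 3 mice heterozygous for the Mustn1 KO-first allele (HET) and 3 wild-type littermates (WT), all 8 weeks of age, labelled as male and of the strain C57BL6/N, with 1 library per mouse. The KO-first allele is a whole-body gene trap meant to stop Mustn1 from being made: its cassette, which holds lacZ and a drug-resistance marker, captures the transcript after the opening exon. HET mice keep 1 intact copy. The comparison asked how gene expression in a young muscle differs between these genotypes.

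The libraries held 26790075 to 50368796 reads on genes. Mustn1 was counted at 12.6, 16.8 and 13.1 reads per 1000000 (CPM, scaled with TMM, the trimmed mean of M-values) in HET and at 23.1, 29.0 and 30.5 in WT, so every HET library lay below every WT library. The log2 fold change of Mustn1 was -0.96 (SE 0.15), with an adjusted p of 0.045 in edgeR's quasi-likelihood test. All 6 libraries went against the sex label: each held 3858 to 9154 reads of Xist, the RNA of the inactive X chromosome, and 0 to 12 reads over 4 genes of the Y chromosome. In all, 22 genes passed the adjusted threshold of 0.05, 21 of them higher in HET. Every HET library lay above every WT library in the summed levels of markers of macrophages (5 of 12 called, higher), fibroblasts (1 of 9 called, higher) and tendon cells (0 of 7 called), with sums of 93.4 to 136 against 51.3 to 58.3 CPM over 12 macrophage markers, 1892 to 2949 against 902 to 1446 CPM over 9 fibroblast markers and 347 to 638 against 107 to 279 CPM over 7 tenocyte markers. In bulk tissue, more cells of a type and more RNA per cell cannot be told apart.

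Counts of mtDNA genes went with the sequence they share with nuclear copies. Mouse chromosome 1 carries annotated unprocessed pseudogenes that are copies of a stretch of mtDNA, and the reads were 50 bases long. The following lines give the first 60 bases of mt-Co3 (mtDNA position 8607 to 8666, plus strand), which encodes a core subunit of complex IV, and of its copy Gm28437 (chr1:24613912-24613971, minus strand). Bases 41 to 100 of mt-Co1 (mtDNA position 5368 to 5427, plus strand), the catalytic subunit of complex IV, follow with those of the copy Gm13340 (chr2:22589548-22589607, minus strand). They are shown because mt-Co1 was counted and mt-Co3 was not. Sequences are those of GENCODE M21 on GRCm38, and capitals mark the bases at which a gene and its copy differ.
mt-Co3: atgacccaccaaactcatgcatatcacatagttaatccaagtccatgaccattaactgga
Gm28437: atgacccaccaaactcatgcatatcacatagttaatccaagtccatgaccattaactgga
mt-Co1: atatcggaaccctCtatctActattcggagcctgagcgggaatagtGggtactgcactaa
Gm13340: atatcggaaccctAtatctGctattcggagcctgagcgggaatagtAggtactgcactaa

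The mt-Co3 stretch held no capital, and over the 783 aligned bases mt-Co3 and Gm28437 did not differ at any base. Over 1545 bases, mt-Co1 and Gm13340 differed at 37, which gave an identity of 97.6%. The share of stretches of 50 bases that a gene had in common with another annotated gene was 100% for mt-Co2, 99.9% for mt-Co3, 99.5% for mt-Atp6, 98.8% for mt-Nd4l and 98.0% for mt-Nd3. Each of these 5 genes held between 0 and 3 reads in every library. The counting command in the file header had no option for reads placed at more than 1 site, which the counter then leaves out, and the chromosome 1 copies themselves held at most 101 reads in a library. The short mt-Atp8 gene had no read in any library although no annotated transcript shared a stretch with it. Its start lies between mt-Co2 and mt-Atp6, whose copies Gm28661 and Gm10925 are neighbours on chromosome 1. The unannotated sequence between these copies was not compared. For these 6 genes the counts therefore gave no level, and no fold was computed.

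The other 7 mtDNA genes were counted in full or in part. mt-Nd1, mt-Cytb and mt-Nd6 shared no stretch with another gene, mt-Nd2 shared 8.2% and mt-Nd5 7.6%. The shared part was larger for mt-Co1, at 51.1%, and for mt-Nd4, at 62.2%, whose first 876 bases were identical to Gm28439 (chr1:24611535-24612410). Where the order of levels was read per kb of gene, mt-Cytb led at 21300.3 ± 3156 CPM per kb (SD, n = 6), followed by mt-Co1 at 16639 ± 2234 and mt-Nd1 at 16188 ± 2211. Counted per 1000 stretches found in no other annotated gene, mt-Co1 came first at 35168 ± 4721 CPM. By this count mt-Nd4 (22967 ± 3515) and mt-Cytb (22253 ± 3298) lay within 1 SD of each other. Unannotated sequence was not searched. The order of these mRNAs thus depended on how shared sequence was treated, and it is given as a description.

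**Figure D1:**
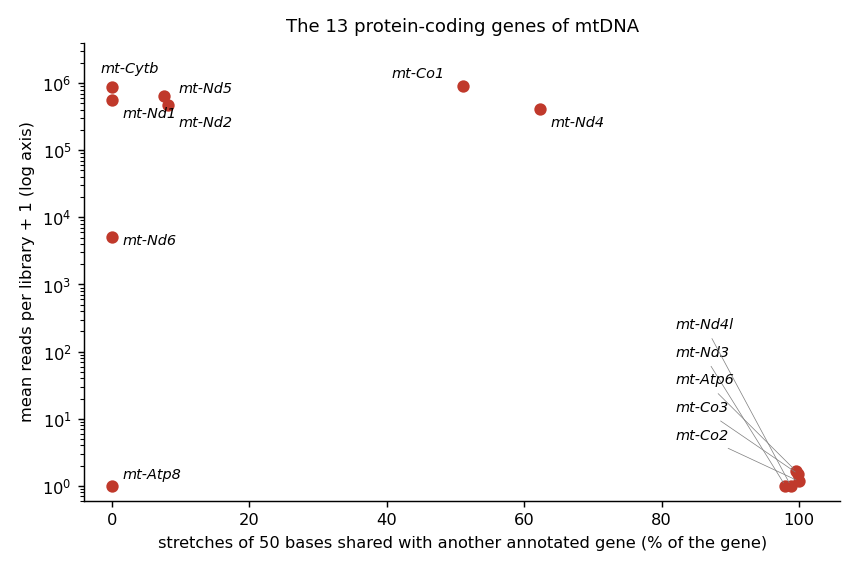
Each point is 1 of the 13 protein-coding genes of mtDNA, with the share of its stretches of 50 bases found in another annotated gene on the x axis (percent) and its mean reads per library plus 1 on a log y axis. The 5 genes above 97% lie at the floor with mt-Atp8, whereas mt-Co1 at 51.1% and mt-Nd4 at 62.2% lie near the top with mt-Cytb, which shares no stretch.

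None of the 53 tested members was called at an adjusted p below 0.05, in edgeR, in DESeq2 or in limma-voom, where 0.15% of all 14696 genes were called in the edgeR fit. At an unadjusted p below 0.05, 9 members were lower in HET and 0 were higher; over all genes 2.0% were lower and 5.76% higher by this criterion. These 9 were the 6 heavy-strand mtDNA mRNAs with counts, and the nuclear genes Cox6c, Cox7b and Uqcrb. Of the 53 members, 47 had a log2 fold change below 0 and 6 above it, and of all genes 7994 lay below 0 and 6702 above. Every HET library lay below every WT library for 11 members, against 6.02% of all genes, and every HET library lay above every WT library for 0 members, against 7.55% of all genes.

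The 6 heavy-strand mtDNA mRNAs gave nearly the same difference. Their log2 fold changes ran from -0.32 to -0.30 with SE of 0.09 to 0.11, so HET stood at 0.80 to 0.81 of WT. Adjusted p-values ran from 0.29 to 0.44 in edgeR's quasi-likelihood test. In the same test the range was 0.078 to 0.13 with no filter on low counts and 0.45 to 0.80 with the length trend removed. These mRNAs share 1 precursor RNA, so they are not 6 independent measurements. mt-Co1 (mtDNA position 5328 to 6872) was counted at 25049, 21429.9 and 22226 CPM in HET and at 30035, 28647 and 26858 in WT. The groups did not overlap, and the highest HET library, HET 1, lay closer to WT 3 than to either other HET library. The log2 fold change of mt-Co1 was -0.32 (SE 0.09), with an adjusted p of 0.29, the lowest among the members.

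mt-Cytb (14145 to 15288), the only subunit of complex III made in the organelle, was counted at 23960.0, 18893 and 22229 CPM in HET and at 28628, 27868.5 and 24626 in WT. The log2 fold change was -0.32 (SE 0.11, adjusted p = 0.40 in edgeR), and again the groups lay apart, with HET 2 lowest. The other heavy-strand mRNAs with counts encode complex I subunits of the membrane arm. mt-Nd1 (2751 to 3707) stood at 15082, 12238 and 14324 CPM in HET and at 17906, 17571 and 15828 in WT. mt-Nd2 (3914 to 4951) stood at 12811, 10490.4 and 11763 CPM in HET and at 15228, 15329 and 13248 in WT. For both genes, HET 2 was the lowest library and HET 1 the highest HET library, just short of WT 3. mt-Nd4 (10167 to 11544) stood at 11232, 8839.7 and 10759.7 CPM in HET and at 14056, 12651 and 11638 in WT. mt-Nd5 (11742 to 13565) stood at 16943, 14192 and 16282 CPM in HET and at 20384, 20547 and 17658 in WT. HET 2 was lowest for all 6 heavy-strand mRNAs and WT 1 or WT 2 highest, so the libraries kept much the same order from gene to gene.

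**Figure D2:**
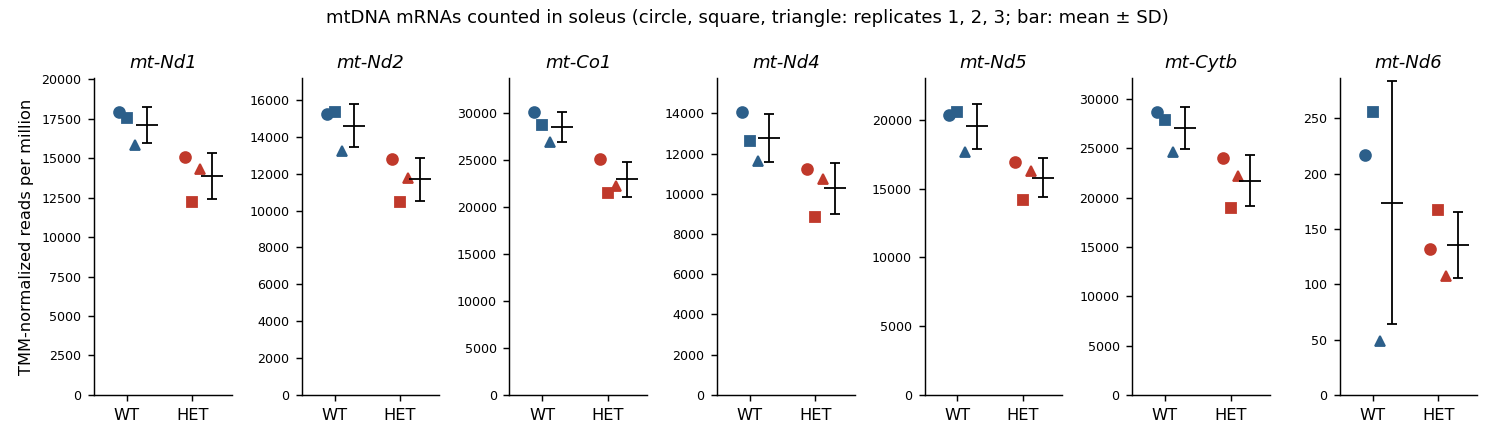
CPM (y axis, from 0, a scale of its own for each gene) of the 7 mtDNA genes with counts, for WT (blue) and HET (red); circle, square and triangle are replicates 1, 2 and 3, and the bars give mean ± SD (n = 3). For the 6 heavy-strand genes the red points lie below the blue ones, and for mt-Nd6 WT replicate 3 lies below all other libraries.

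The scaling of the libraries bore on this separation. With TMM factors, and in the authors' normalized values, all 6 heavy-strand mRNAs had every HET library below every WT library, but with library totals alone only 1 did. As a plain share of all reads, the mtDNA members took 10.9%, 8.6% and 10.2% in HET and 12.2%, 12% and 10.8% in WT, and the groups overlapped. These shares hold hardly any reads of the mtDNA genes that gave no level, so they are not the whole mtDNA output. Removing the trend of each library on GC content brought the median of the 7 mtDNA members from -0.32 to -0.17. Without HET 2 the median was -0.22, and over the 6 left-out libraries it ran from -0.38 to -0.22.

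mt-Nd6 (13552 to 14070), a complex I subunit and the only mRNA of the light strand, went its own way. It was counted at 132, 168 and 108 CPM in HET and at 217, 255 and 48.9 in WT. WT 3, which was within the range of the other libraries for heavy-strand mRNAs, was lowest of all 6. The log2 fold change of -0.36 had an SE of 0.66 (adjusted p = 0.96 in edgeR). Per 1000 reads of the other mtDNA members, mt-Nd6 held 1.25, 1.95 and 1.10 reads in HET and 1.72, 2.08 and 0.45 in WT.

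Set against the nuclear members, the mtDNA members yielded 4.96, 3.84 and 5.18 reads per nuclear read in HET and 5.66, 5.60 and 5.0 in WT. The groups overlapped, since HET 3 lay above WT 3. The mtDNA reads here hold hardly any from the mtDNA genes that gave no level, so the ratio covers only part of the mtDNA mRNA. The mean log2 ratio was lower in HET by a difference of -0.23, with SD of 0.23 in HET and 0.10 in WT. Without HET 2 this difference was -0.09, and without HET 3 it was -0.31, so those libraries pulled it in opposite directions. Nuclear members together took 2.19%, 2.25% and 1.97% of all reads in HET and 2.15%, 2.14% and 2.15% in WT, and the 3 WT libraries were close to each other while HET 3 stood apart.

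For the 46 nuclear members the median log2 fold change was -0.11, beside -0.02 over all genes tested, with 40 below 0 and 6 above. HET 3 held the lowest level for 38 of the 46, whereas this library was lowest for 21.3% of all genes tested. Without HET 3 the median of the nuclear members was -0.003. HET 2, the library lowest in the heavy-strand mtDNA mRNAs, was the highest for 15 nuclear members, as was WT 2, and the lowest for 4; over all genes tested HET 2 was highest for 23.2% and lowest for 24.1%. The nuclear members and the heavy-strand mtDNA mRNAs were thus lowest in different HET mice.

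**Figure D3:**
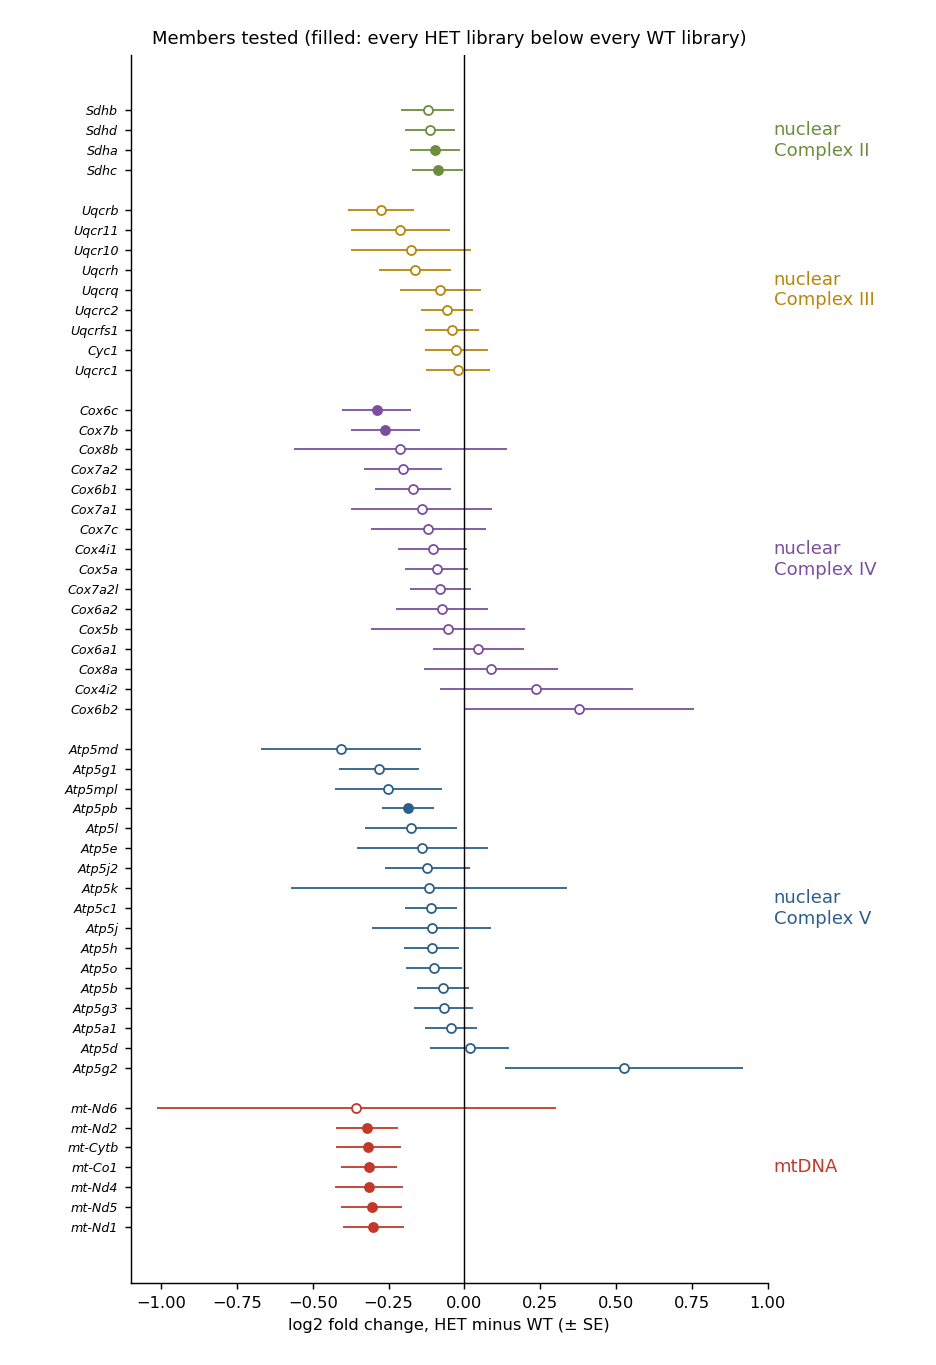
Log2 fold change, HET minus WT, with its SE (x axis) for the 53 members tested, grouped by complex and sorted within it; filled points mark members with every HET library below every WT library. Most points lie left of 0, the 6 heavy-strand mtDNA mRNAs form a narrow band from -0.32 to -0.30, and no member passed the adjusted threshold.

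Short members varied widely between mice. Length, here and in values per kb, is that of all annotated exons of a gene, which can exceed the length of its mRNA. In HET 3 the 13 nuclear members under 1 kb had a median of -0.44 (log2 deviation from the mean of the 6 libraries), those of 1 to 2 kb -0.19 and those of 2 kb or more -0.17. Other genes tested had medians of -0.12, -0.07 and 0.00 in the same length classes of HET 3. In HET 2 the members under 1 kb lay at 0.28 and in WT 2 at 0.26, against 0.04 and 0.05 for other genes of that length. In these 3 libraries short members deviated in the direction of other short genes, and farther. In HET 1 and WT 1 the members under 1 kb (-0.004 and 0.07) lay close to other genes of that length (-0.005 and 0.07), and in WT 3 they lay at -0.02 against 0.03. The part of RNA quality or library preparation in this was not tested.

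**Figure D4:**
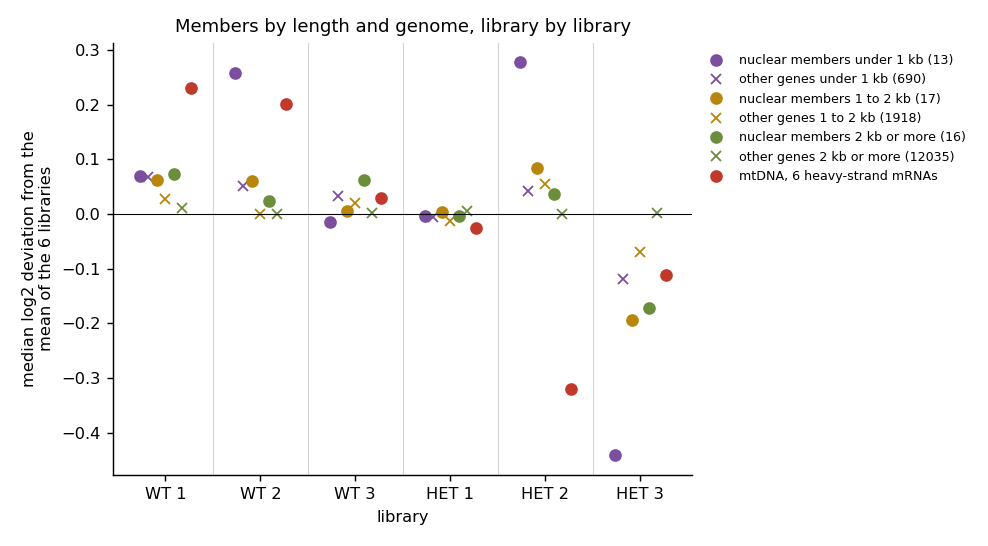
Median log2 deviation of each library from the mean of the 6 libraries (y axis), for nuclear members by length class (circles), for the other genes tested in the same classes (crosses) and for the 6 heavy-strand mtDNA mRNAs (red circles); numbers in the key are genes. Members under 1 kb lie at -0.44 in HET 3 and at 0.28 in HET 2, whereas the heavy-strand mRNAs are lowest, at -0.32, in HET 2.

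Complex II, succinate dehydrogenase, oxidizes succinate in the citric acid cycle and hands the electrons to ubiquinone. All 4 subunits lay slightly below WT, with log2 fold changes of -0.12 to -0.09 and SE of 0.08 to 0.09. Sdha (chr13:74322254-74350280), the flavoprotein, stood at 1344, 1369 and 1258 CPM in HET and at 1453, 1379 and 1416 in WT. Sdhb (chr4:140961203-140979193), the iron-sulfur subunit, stood at 569, 601 and 516 CPM in HET and at 616, 595 and 621 in WT. The groups were apart for Sdha and overlapped for Sdhb. Sdhc (chr1:171127165-171150603), a membrane anchor, stood at 534, 531 and 489 CPM in HET and at 574, 540.2 and 539 in WT. Sdhd (chr9:50596357-50603812), the other anchor, stood at 309, 293 and 279 CPM in HET and at 328, 318 and 306 in WT. Sdhc kept the groups apart by a few CPM, and adjusted p-values of the 4 genes were 0.86 to 0.89 in edgeR. Without HET 3 the log2 fold changes were -0.06 for Sdha, -0.06 for Sdhb, -0.045 for Sdhc and -0.07 for Sdhd. Summed, complex II gave 2697 ± 136 CPM in HET and 2895 ± 71 in WT (SD, n = 3) with the groups apart, whereas as a share of all reads the groups overlapped, at 0.277% and 0.282%.

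Complex III transfers electrons from ubiquinol to cytochrome c. All 9 nuclear subunits had a log2 fold change below 0, from -0.28 to -0.02, and none kept the groups apart. Uqcrb (chr13:66900617-66905378), a small subunit near the quinone site, was lowest, at 63.8, 57.1 and 50.7 CPM in HET and 70.6, 75.1 and 62.0 in WT. HET 1 exceeded WT 3, and the difference of -0.28 (SE 0.11) had an adjusted p of 0.55. Uqcrb shared 25.5% of its stretches with other genes, among them processed pseudogenes. Uqcr11 (chr10:80402997-80406830), another small subunit, stood at 92.5, 110.4 and 66.8 CPM in HET and at 100.3, 115 and 97.2 in WT, so that only HET 3 lay clear of the rest, and without HET 3 its log2 fold change moved from -0.21 to -0.03. The other 5 nuclear subunits, Uqcr10, Uqcrh, Uqcrq, Uqcrc2 and Uqcrfs1, ran from -0.18 to -0.04 with SE of 0.09 to 0.20, and HET 3 was the lowest library for all but Uqcrc2.

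Among the nuclear subunits of complex III, the log2 fold changes closest to 0 belonged to Cyc1 and Uqcrc1. Cyc1 (chr15:76343523-76345934), the heme-bearing cytochrome c1 and the nuclear member of complex III with the most reads per length (461 ± 40 CPM per kb, n = 6), stood at 527, 622 and 486 CPM in HET and at 543, 539 and 584 in WT. Uqcrc1 (chr9:108936633-108949623), a core subunit, stood at 1044, 1242 and 976 CPM in HET and at 1098, 1033 and 1179 in WT. In both genes HET 2 was the highest library and HET 3 the lowest. The log2 fold changes of -0.03 (SE 0.10) for Cyc1 and -0.02 (SE 0.11) for Uqcrc1 both lie within 1 SE of 0. The sign of each changed under several settings.

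Complex IV, cytochrome c oxidase, passes electrons to oxygen. Of its 16 nuclear members, 12 lay below 0 and 4 above. Cox6c (chr15:35925886-35938246) stood at 258, 241 and 190.3 CPM in HET and at 296, 279 and 267 in WT, a log2 fold change of -0.29 (SE 0.11, adjusted p = 0.54 in edgeR). Cox7b (chrX:106015700-106022450) stood at 229.5, 214 and 169 CPM in HET and at 239.9, 259 and 234 in WT, a log2 fold change of -0.26 (SE 0.11, adjusted p = 0.63 in edgeR). Both are small structural subunits of the membrane part, both kept the groups apart, and in both HET 3 was lowest by far. Without HET 3 the log2 fold change was -0.17 for Cox6c and -0.14 for Cox7b.

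At the other end stood 2 genes with hardly any reads in muscle. Cox6b2 (chr7:4751792-4753094), the testis form of Cox6b1, had 25, 19 and 17 reads in HET and 11, 14 and 23 in WT, and a log2 fold change of 0.38 (SE 0.38). Cox4i2 (chr2:152754173-152765037), the alternative form of Cox4i1 best known from lung, had 87, 100 and 66 reads in HET and 50, 61 and 120 in WT, and a log2 fold change of 0.24 (SE 0.32). The groups overlapped in both. Cox4i1 (chr8:120668222-120674207), the common form, stood at 693, 788 and 571 CPM in HET and at 729, 727 and 749.8 in WT. Of the others outside the isoform pairs, Cox5a, Cox5b, Cox6b1, Cox7a2l and Cox7c ran from -0.17 to -0.05. Cox7c held 98 to 187 reads in a library and shared 22.1% of its stretches with other genes, among them processed pseudogenes, so its level is uncertain.

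Several subunits of complex IV come as a form of heart and skeletal muscle and a form of most other tissues, and these pairs checked the tissue label. Per kb, the muscle form Cox6a2 took 97.6% ± 0.3 of the pair Cox6a2 and Cox6a1 in HET and 97.8% ± 0.4 in WT (SD, n = 3). Cox8b took 90.7% ± 2.0 of the pair Cox8b and Cox8a in HET and 92.5% ± 1.1 in WT. Cox7a1 took 67.7% ± 2.1 of the pair Cox7a1 and Cox7a2 in HET and 66.6% ± 4.5 in WT. Per kb, muscle forms thus led in all 3 pairs, by least for Cox7a1, and in each pair the groups overlapped. By reads without division by length, Cox7a1 took 54.3% ± 2.3 in HET and 53.2% ± 5.0 in WT, with 48.1% in WT 3. Cox4i2 took 0.70% ± 0.21 of the pair Cox4i2 and Cox4i1 in HET and 0.55% ± 0.10 in WT.

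Cox6a2 (chr7:128205435-128206387), the member of complex IV with the most reads per length among nuclear genes (1051 ± 161 CPM per kb, n = 6), stood at 699, 857 and 533 CPM in HET and at 743, 781 and 675 in WT. Cox6a1 (chr5:115345642-115348981) stood at 15.9, 21.3 and 15.1 CPM in HET and at 15.1, 16.3 and 19.0 in WT. HET 2 was highest in both, and HET 3 lowest in both. Cox8b (chr7:140898945-140900446) stood at 139.6, 187 and 78.8 CPM in HET and at 139, 202 and 128 in WT. Cox8a (chr19:7215158-7217616) stood at 17.1, 27.9 and 15.5 CPM in HET and at 16, 22.1 and 18.7 in WT. Cox8b varied more between mice of 1 genotype than between the genotypes, and its log2 fold change of -0.21 had an SE of 0.35. Cox7a1 (chr7:30184144-30186078) stood at 144, 155 and 90.5 CPM in HET and at 141, 177 and 113 in WT. Cox7a2 (chr9:79755361-79759878) stood at 114, 125 and 84.8 CPM in HET and at 123, 127 and 121 in WT. Again HET 3 was the lowest library for both, and adjusted p-values in edgeR were 0.95 for Cox7a1 and 0.82 for Cox7a2.

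**Figure D5:**
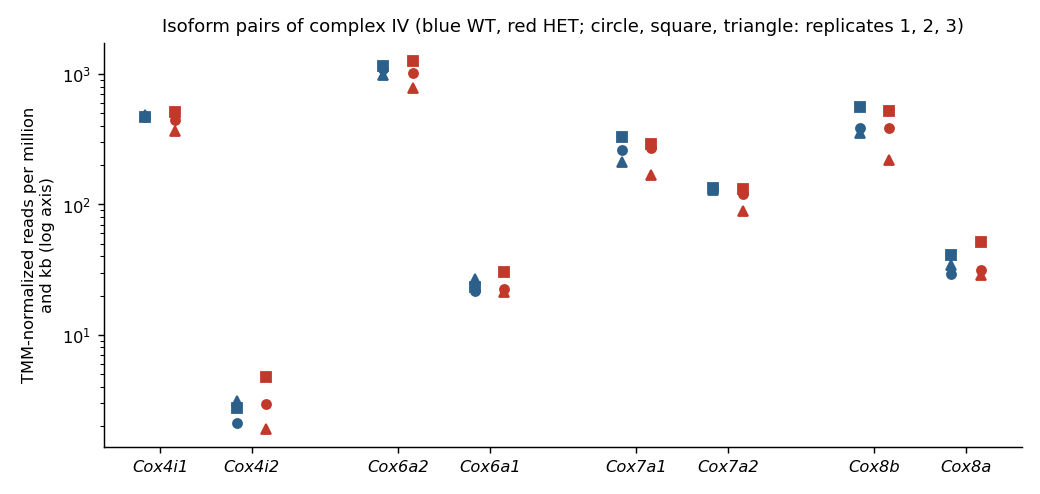
CPM per kb (log y axis) of 4 isoform pairs of complex IV in WT (blue) and HET (red), with circle, square and triangle for replicates 1, 2 and 3. Cox6a2 (mean 1051) and Cox8b (405) lie far above Cox6a1 (24.4) and Cox8a (35.9), the 2 genes of the Cox7a pair are nearer to each other, and the genotypes overlap for every gene.

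The promoters of the Cox8 pair are given because these 2 genes encode forms of the same subunit at unlike levels, 405 ± 123 CPM per kb for Cox8b and 35.9 ± 8.7 for Cox8a (SD, n = 6). Each line runs from 250 bases before to 50 bases after the annotated start, in RefSeq's GRCm38.p6 record, with Cox8a at chr19:7217567-7217866 and Cox8b at chr7:140900397-140900696, both on the minus strand. Capitals mark matches, on either strand, to the ETS core CCGGAAG, the NRF-1 core CGCATGCG, the ERR half-site AAGGTCA or the TATA box TATAAA.
Cox8a promoter: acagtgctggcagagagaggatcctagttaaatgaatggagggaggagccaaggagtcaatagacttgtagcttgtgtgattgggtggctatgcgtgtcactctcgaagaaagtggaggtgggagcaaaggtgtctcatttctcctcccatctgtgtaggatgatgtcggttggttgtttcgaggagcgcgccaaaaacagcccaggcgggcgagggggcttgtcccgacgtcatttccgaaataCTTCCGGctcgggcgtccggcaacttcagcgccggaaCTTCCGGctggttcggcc
Cox8b promoter: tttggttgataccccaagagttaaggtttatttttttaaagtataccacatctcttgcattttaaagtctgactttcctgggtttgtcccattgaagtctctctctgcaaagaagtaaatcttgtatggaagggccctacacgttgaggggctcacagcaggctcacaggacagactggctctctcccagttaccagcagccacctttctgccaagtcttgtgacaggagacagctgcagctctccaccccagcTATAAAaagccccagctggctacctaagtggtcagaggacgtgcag

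The Cox8a window held the ETS core at 2 places and no TATAAA, and the Cox8b window held TATAAA and no ETS core. In Cox8b these letters lay just after the annotated start, not before it, so they are not called a TATA box here. A promoter was at hand for 35 of the 46 nuclear members. Members were counted as genes with a match in any of their windows, and all promoters as single windows. The shares of members and of all promoters are therefore not on the same basis. The NRF-1 core was present in 20.0% of them (Atp5g2, Atp5j, Atp5k, Atp5l, Cox6a1, Uqcr11 and Uqcrc1) and in 1.87% of all 32851 promoters. The ETS core was present in 37.1% of the members and in 8.86% of all promoters, and the ERR half-site in 14.3% and 4.72%. The letters TATAAA, at any place in the window, were present in 8.57% of the members (Atp5l, Atp5md and Cox8b) and in 13.6% of all. These matches describe letters in the windows only.

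Complex V, ATP synthase, couples proton flow to ATP synthesis. Of its 17 nuclear members, 15 lay below 0 and 2 above, and together they took 1.15% ± 0.06 of all reads in HET and 1.15% ± 0.02 in WT (SD, n = 3). Atp5a1 (chr18:77773729-77782869), the alpha subunit and the nuclear member with the most reads per length (1124 ± 55 CPM per kb, n = 6), stood at 3458.5, 3658 and 3291 CPM in HET and at 3657, 3377 and 3701 in WT. The log2 fold change of -0.04 was smaller than its SE of 0.09. Atp5b, with 4237 bases of annotated exons, had more CPM than Atp5a1 in every library but stood at 1038 ± 53 CPM per kb. Atp5d (chr10:80138632-80145818), the delta subunit of the catalytic head, stood at 348, 464 and 315 CPM in HET and at 372, 363 and 378 in WT. HET 2 lay above and HET 1 and HET 3 below all WT libraries, and the log2 fold change was 0.02 (SE 0.13).

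The largest differences in complex V belonged to genes with few reads. Atp5md (chr19:47083471-47090625), a small subunit of the membrane part, had 85, 58 and 57 reads in HET and 70, 86 and 108 in WT, or 2.27, 2.16 and 1.30 CPM against 2.34, 3.05 and 2.19. The log2 fold change of -0.41 (SE 0.26, adjusted p = 0.82 in edgeR) was the lowest among nuclear members, and HET 1 lay above WT 3. Reads of Atp5md were counted over 341 bases, whereas sharing was computed over 2847 stretches of its GENCODE M21 transcripts, 227 of them shared. How much of the counted part is shared is not known, so its count is uncertain as well. Atp5g2 (chr15:102662864-102672352) had 14, 16 and 28 reads in HET and 9, 9 and 23 in WT, and a log2 fold change of 0.53 (SE 0.39, adjusted p = 0.86 in edgeR). Atp5g1 (chr11:96068852-96075670) stood at 12.4, 12.8 and 15.2 CPM in HET and at 17.9, 14.2 and 17.2 in WT, a log2 fold change of -0.28 (SE 0.13, adjusted p = 0.66 in edgeR). Atp5g1, Atp5g2 and Atp5g3 encode the same mature c subunit of the rotor ring, and Atp5g3 took 99.1% of their reads per kb in either genotype. Atp5g2 shared 38.3% of its stretches with pseudogenes and Atp5g1 11.1% with other genes, so their counts are uncertain. Among the other members of complex V, log2 fold changes ran between those of Atp5g1 and Atp5d, and only Atp5pb, the stalk subunit b, kept the groups apart, at 418, 380.0 and 364 CPM in HET and 456, 437 and 428 in WT.

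Genes that build or serve these complexes were read from lists of assembly factors, mtDNA expression genes, regulators, carriers, the citric acid cycle, complex I and mitochondrial ribosomal proteins. Of 234 entries tested in these lists, 0 were called in edgeR. The 38 genes listed for complex I had a median log2 fold change of -0.16, with 37 below 0. Every HET library lay below every WT library for 9 of them, against 6.02% of all genes. Their list also holds Ndufa4, which encodes a complex IV subunit, and its relative Ndufa4l2. Ndufa4l2 was the only entry above 0, at 0.06. The 77 mitochondrial ribosomal proteins tested had a median of -0.08 and the 13 citric acid cycle genes -0.10. For 8 of the 77 and 5 of the 13, every HET library lay below every WT library. The 14 genes listed for electron carriers, which are Cycs and genes for making or handling coenzyme Q, had a median of -0.07. The groups lay apart in this way for 0 of these 14. Medians were -0.14 for 4 assembly factors of complex II, -0.08 for 6 of complex III, -0.10 for 22 of complex IV and -0.12 for 5 of complex V. The 29 genes of mtDNA expression and maintenance had a median of -0.06, and the 14 nuclear regulators, such as the coactivators and receptors of mitochondrial biogenesis, lay at 0.05. The 12 membrane carriers and pores had a median of -0.09. These medians stand beside -0.02 over all genes tested. HET 3 had the lowest summed level in 10 of these 11 lists. Without HET 3 the median was -0.02 for the complex I list, with 21 of 38 genes below 0, and -0.03 for mitochondrial ribosomal proteins. It was -0.05 for the citric acid cycle, -0.01 for the electron carrier list and -0.05 for membrane carriers and pores. For the assembly factors it was then -0.09 (complex II), -0.07 (complex III), -0.06 (complex IV) and -0.05 (complex V), for mtDNA expression and maintenance -0.09 and for regulators 0.03.

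Fiber markers bear on the oxidative character of the tissue. The 7 slow-fiber genes gave 37190 to 39532 CPM in HET and 38059 to 42316 in WT, a median log2 fold change of -0.08 with 0 called. The 9 fast-fiber genes gave 33492 to 40007 CPM in HET and 39241 to 42114 in WT, a median of -0.21 with 0 called. All 9 fast-fiber genes lay below 0, as did 6 of the 7 slow-fiber genes. Every HET library lay below every WT library for 4 fast-fiber genes and 1 slow-fiber gene, against 6.02% of all genes. Without HET 3 the medians were -0.15 for fast-fiber and -0.07 for slow-fiber genes. Myh2, the myosin of type IIa fibers, had a log2 fold change of 0.14. Endothelial markers had a median of -0.01, erythrocyte markers -0.22 and adipocyte markers 1.18, with 0 called in each. The macrophage, fibroblast and tenocyte sums were higher in HET, in the direction opposite to the mtDNA mRNAs, and had medians of 1.40, 0.61 and 1.14, with 5 of 12, 1 of 9 and 0 of 7 called; without HET 3 the medians were 1.29, 0.55 and 1.10, with 0 called. Their part in the levels of the members was not tested.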

How the data were processed

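Total RNA of soleus was enriched for poly-A and sequenced as single reads of 50 bases in 3 HET and 3 WT mice. The authors aligned with STAR 2.7.3a to GRCm38.p6 and deposited raw counts per gene from featureCounts 2.0.3, without normalization; per the file headers it ran reverse-stranded, with no option for reads that map to several sites or genes, which the tool then leaves out by default. The authors' deposited normalized signal is the count divided by a DESeq2 size factor per library (0.773 to 1.42). A deposited table of fold changes and p-values of the authors' own comparison was not used. No value column was left without a sample (0 unmatched).

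Counts were tested with edgeR 4.0.16 in R 4.3.3 (quasi-likelihood test, robust, TMM factors, filterByExpr with a minimum of 10, Benjamini-Hochberg over 14696 genes, threshold 0.05), and alternatives used DESeq2 1.42.0 and limma 3.58.1; scripts were tested on simulated data. Tables and plots were made with pandas 2.3.3 and matplotlib 3.10.9. Gene names and transcripts came from GENCODE M21, and shared stretches were counted over its transcripts with 50 bases. Of the counted genes found in M21, 94.19% had the same coordinates there. The members and lists were chosen with earlier results of these data known. Values were printed for every library for the mtDNA members, the 4 Sdh genes, 4 isoform pairs, the 2 highest and 2 lowest fold changes and the highest level per kb in each complex; Atp5pb was named after its values were seen. The labels do not say whether replicate numbers pair the mice, and same-numbered libraries had correlations of 0.20, -0.01 and -0.03. The p-values measure the spread between 3 mice a group.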

Additional observations from a re-analysis of the deposited data

How the results depend on the processing

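The members gave 0 calls under each of the 20 alternatives and left-out libraries, with Atp5g2 not tested where at least 10 reads were asked of every library, while the count over all genes changed. It was 210 with the DESeq2 Wald test, 404 with no filter on low counts, 3 with limma-voom, 6 with a non-robust fit and 8 with the GC trend removed, and with a library left out it ran from 0 to 83. With the replicate number as a block (replicate block) it was 116. It was 142 with the block and the length trend removed and 97 with the block and the GC trend removed. Whether the numbers pair the mice is not known from the labels, and the block called 0 members. The cause of these shifts was not tested. The median of the mtDNA members was -0.17 with the GC trend removed and -0.17 with the replicate block and the GC trend removed, and with a library left out it ran from -0.38 to -0.22. The median of the nuclear members then ran from -0.16 to -0.003, and the log2 ratio of mtDNA to nuclear reads from -0.31 to -0.09. With library totals alone the median of all genes moved from -0.02 to 0.06, that of nuclear members to -0.03 and that of mtDNA members to -0.24.

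Some members close to 0 changed sign, as log2 fold changes. With upper-quartile factors Cyc1 was 0.0006 and Uqcrc1 0.0056. With library totals alone Atp5a1 was 0.031, Cyc1 0.047 and Uqcrc1 0.052. With limma-voom Atp5d was -0.0037. With the replicate block Atp5d was -0.003. With the length trend removed Cox6a2 was 0.017 and Cyc1 0.034. With the replicate block and the length trend removed Cox6a2 was 0.01, Cyc1 0.033 and mt-Nd6 0.035. With the GC trend removed Atp5d was -0.065 and Cox6a1 -0.038. With the replicate block and the GC trend removed Atp5d was -0.068, Cox6a1 -0.038, Cox8a -0.0035 and mt-Nd6 0.095. With a library left out, values ran for Uqcrc1 from -0.12 (without HET 2) to 0.054 (without HET 3), for Atp5d from -0.15 (without HET 2) to 0.13 (without HET 3), for Cox4i2 from -0.13 (without HET 2) to 0.52 (without HET 3), for Cox6a1 from -0.11 (without HET 2) to 0.15 (without WT 3). They ran for Cox8a from -0.20 (without HET 2) to 0.25 (without HET 3), for Cox4i1 from -0.21 (without HET 2) to 0.014 (without HET 3), for Cox6a2 from -0.24 (without HET 2) to 0.090 (without HET 3), for Cox7a1 from -0.29 (without WT 3) to 0.067 (without HET 3). They ran for Cox8b from -0.51 (without HET 2) to 0.065 (without HET 3), for Cyc1 from -0.12 (without HET 2) to 0.053 (without HET 3), for mt-Nd6 from -0.80 (without WT 3) to 0.029 (without WT 2). Among the named members, the other 610 values kept direction and side of the threshold, the isoform shares included. With 3 mice a group and members' SE of 0.08 to 0.66, small differences could not be resolved.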

Other observations

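Noncoding genes of the mitochondrial chromosome were counted as well, although poly-A selection leaves only part of them. The ribosomal RNA mt-Rnr2 stood at 4132, 3408 and 3754 CPM in HET and at 5135, 4898 and 3787 in WT. mt-Rnr1 stood at 1275, 1153 and 1308 CPM in HET and at 1584, 1539 and 1048 in WT. Unlike for the 6 heavy-strand mRNAs, WT 3 did not lie above all HET libraries for mt-Rnr2 or mt-Rnr1. The 8 light-strand tRNA genes summed to 3.79, 5.22 and 3.87 CPM in HET and to 7.93, 7.80 and 2.69 in WT, so WT 3 was lowest here as it was for mt-Nd6, the light-strand mRNA. The 14 heavy-strand tRNA genes summed to 47.5, 43.0 and 49.6 CPM in HET and to 60.5, 57.6 and 47.7 in WT.

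The mtDNA copies outside the organelle had few reads. Gm13340 on chromosome 2, the copy of mt-Co1, had 302, 139 and 393 reads in HET and 364, 277 and 509 in WT, beside 575108 to 1325682 for mt-Co1. On chromosome 1, Gm28438, the copy of mt-Nd3, had 35 to 101 reads in a library, whereas mt-Nd3 itself had 0.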
